A study of Spirodela polyrhiza with 16 samples.

Results

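3 genes of inositol phosphate metabolism were followed across fronds and roots of the giant duckweed Spirodela polyrhiza, a free-floating water plant reduced to flat green fronds and short roots beneath them. They were Sp04g01322, a homolog of inositol-3-phosphate synthase, Sp09g00677, a homolog of inositol-tetrakisphosphate 1-kinase 5, and Sp05g00658, a homolog of the phosphatase DSP1. The 3 were picked by identifier from the 20389 genes of the deposited table, with earlier results of these data known. The rule that lists them does not say which values led to each. It is assumed here, from the earlier results that name them, that the synthase and 1-kinase homologs were chosen on their difference between media in roots, and the DSP1 homolog on its difference in fronds. Those differences, and the contrast between tissues of the response to the medium, are therefore given as descriptions with no test. The difference between media in the other tissue, and the difference between roots and fronds averaged over both media, were tested, and those p-values hold only if that assumption is right.

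All plants were of genotype 9509 and grew in 250 ml flasks of 100 ml N-Media, whose medium was exchanged on day 10. In the control groups the new medium was complete, and in the no phosphate groups it lacked KH2PO4, the phosphate salt. Plants were collected on day 11, 1 day after the exchange, and each flask gave a pool of fronds and a pool of roots, so that a library stands for the plants of a flask. The 4 groups were frond control, frond no phosphate, root control and root no phosphate, with 4 libraries each, and the libraries of a tissue are named by their column number, which runs from 1 to 4 in control and from 5 to 8 without phosphate.

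Inositol-3-phosphate synthase turns glucose 6-phosphate into inositol phosphate, the entry point of all myo-inositol made by a plant, and the Spirodela gene TUR1, which encodes it, is known for its rise when abscisic acid makes fronds form dormant turions. Kinases then add phosphates around the ring up to inositol hexakisphosphate, or phytate, and further to inositol pyrophosphates, and in Arabidopsis phosphatases of the DSP family cut those pyrophosphates back. SPX domains, found in regulators of phosphate starvation genes and in phosphate transporters, bind inositol pyrophosphates, so the pathway is tied to how plants sense their phosphate supply.

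Reads per gene, recovered from the FPKM, summed to 6325297 to 12437151 per library, which is not the sequencing depth. Light-harvesting and Rubisco small subunit homologs, 16 genes taken as frond markers, summed to 40552 to 47631 FPKM in frond libraries and to 11902 to 21924 in root libraries, and none was at 0 in any library. FPKM are reads scaled to gene length and to library size, so levels of different genes are compared per length throughout. Of the 16, 13 were lower and 2 higher in roots, where 38.4% and 36.3% of all tested genes were. The higher ones included Sp15g00063, a Rubisco small subunit homolog whose model also lists a small nuclear ribonucleoprotein domain. The 11 root marker homologs summed to 35.4 to 54.0 FPKM in fronds and to 49.96 to 117 in roots, and 0 to 3 of them were at 0. Of the 9 tested, 3 were higher and 3 lower in roots, near the 36.3% and 38.4% of all tested genes. As a list they thus did not mark the tissues. Sp04g00111, a homolog of the Casparian strip protein CASP1, averaged 2.88 FPKM in fronds and 44.0 in roots. The lower ones averaged 4.32 and 0.246 FPKM (Sp07g00514, a SHORT-ROOT homolog whose model also lists a peroxidase domain), 4.18 and 0.117 (Sp04g00049, with a root cap domain) and 9.68 and 7.09 (Sp01g01244, a SCARECROW homolog). Reads of Sp07g00514 and Sp15g00063 may thus not all stem from the named gene. None of the markers of either list passed the test for a lower level without phosphate, in either tissue, and 1 frond marker passed for a higher level in fronds. The part of frond markers in the root libraries in the differences between tissues was not tested. In such whole-tissue libraries, fewer cells of a type and less RNA per cell cannot be told apart.

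Phosphate withdrawal went with about 3 times more synthase RNA in fronds. Sp04g01322 lies on chromosome 4, 8021249 to 8026887, plus strand, in the coordinates of the deposited table, carries both domains of myo-inositol-1-phosphate synthase, and has the Spirodela TUR1 protein as its listed homolog. In control fronds its level was 117, 122, 128 and 81.9 FPKM in libraries 1 to 4, and without phosphate it was 388, 373, 310 and 291 FPKM in libraries 5 to 8. All 4 libraries without phosphate were above all 4 controls, and the lowest control was library 4. The means were 112 ± 20.8 and 340 ± 47.3 FPKM (SD, n = 4), a 3.03-fold difference. On the log2(FPKM + 1) scale the gene rose by 1.60 ± 0.23 (SE), with a 95% interval of 1.11 to 2.10 and an adjusted p of 0.00359 in limma, a linear model fitted over all 16598 genes tested. At an adjusted p under 0.05, 4.41% of tested genes were called in fronds, 2.11% as higher and 2.3% as lower. A complete separation of the groups with the higher values in no phosphate was found in 9.65% of tested genes in fronds and in 1.22% in both tissues.

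In roots the same gene was lower than in fronds but stood in the same order between media. Its level was 44.5, 36.8, 21.3 and 23.5 FPKM in the control libraries 1 to 4 and 54.8, 97.97, 89.3 and 95.3 FPKM in libraries 5 to 8. The groups did not overlap, and library 5 stood lowest without phosphate, closest to control library 1. The means were 31.5 ± 11.1 and 84.3 ± 20.03 FPKM (SD, n = 4), 2.68-fold apart, and the log2 difference of 1.42 ± 0.23 (SE) is a description, as it is taken to have chosen the gene. In roots 0.422% of all tested genes were called, 0.355% as higher and 0.0663% as lower, and 3.45% were separated with the higher values in no phosphate. The log2 change in roots minus that in fronds was -0.18 ± 0.33 (SE), smaller than its error.

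Fronds held more of this synthase RNA than roots in either medium. Averaged over both media, the log2 difference of root minus frond was -1.93 ± 0.16 (SE), with frond levels 3.91-fold higher with an adjusted p of 1.95e-08 in limma. It was 3.56-fold in control medium and 4.04-fold without phosphate. Differences between the tissues were the rule in this table, with 74.7% of tested genes called, 36.3% as higher in roots and 38.4% as lower. From lowest to highest the order was root control, root no phosphate, frond control and frond no phosphate. Root no phosphate and frond control were neighbours whose libraries overlapped, at 54.8 to 97.97 and 81.9 to 128 FPKM, while the other neighbours were separated.

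**Figure D1:**
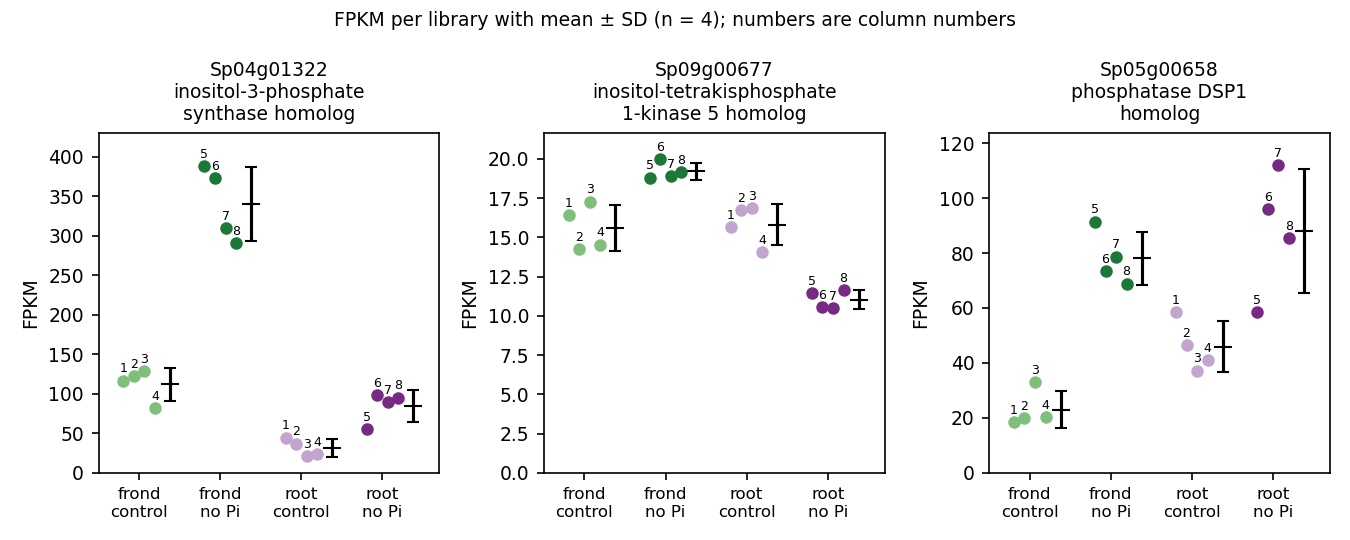
FPKM of the 3 genes in each of the 16 libraries (points, labelled with the column number), with the mean and SD of each group of 4 beside them, on linear axes that start at 0. Without phosphate the mean of the synthase homolog is higher in both tissues, and that of the 1-kinase homolog is higher in fronds and lower in roots. The DSP1 homolog has higher means in both tissues, its root groups meeting at 58.5 FPKM.

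The table holds a second synthase homolog, Sp07g01015, on chromosome 7, 7414809 to 7417709, with the same listed homolog and domains, and its level did not pass the test between media. Its means were 88.0 ± 7.83 FPKM in control fronds and 97.7 ± 12.6 without phosphate, with a log2 difference of 0.15 ± 0.21 (SE) and an adjusted p of 0.74 in limma. In roots the means were 67.6 ± 13.1 and 53.2 ± 19.7 FPKM (SD, n = 4), with a log2 difference of -0.40 ± 0.21 (SE) and an adjusted p of 0.358. Its libraries overlapped between media in both tissues. Like the first copy it was lower in roots than in fronds, at a log2 difference of -0.66 ± 0.15 (SE, adjusted p = 0.000801).

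The balance of the 2 copies differed between the groups. Sp04g01322 made up 55.7% ± 6.12 of their summed FPKM in control fronds and 77.5% ± 3.99 without phosphate, and 31.5% ± 8.82 and 61.5% ± 11.4 in roots (SD, n = 4). In control roots the second copy was thus the more abundant one, and in no phosphate fronds the first. The gene lengths in the table are 3015 and 1509 bases. The longer is 3 bases short of the shorter doubled, and FPKM divide by that length, so the shares rest on the table's gene models. How reads of closely related copies were counted is not stated, and reads they have in common could be assigned to either.

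Of the kinases, Sp09g00677 was the only gene of the 3 whose means differed between media in opposite directions in the 2 tissues, and the differences were small. It lies on chromosome 9, 3742577 to 3743593, minus strand, and its listed homolog is a rice kinase of the family that adds phosphates to inositol trisphosphates and tetrakisphosphates. In control fronds its level was 16.4, 14.2, 17.3 and 14.5 FPKM in libraries 1 to 4, and without phosphate it was 18.8, 19.97, 18.9 and 19.1 FPKM in libraries 5 to 8. All 4 libraries without phosphate were above the controls, a separation found in 9.65% of tested genes. The means were 15.6 ± 1.47 and 19.2 ± 0.532 FPKM (SD, n = 4). The log2 difference of 0.29 ± 0.09 (SE), with a 95% interval of 0.087 to 0.486, did not pass the test at an adjusted p of 0.0948 in limma, and over the alternatives tried that p lay between 0.0758 and 0.233.

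In roots the order was turned around. Control libraries 1 to 4 had 15.6, 16.7, 16.8 and 14.1 FPKM, and libraries 5 to 8 without phosphate had 11.4, 10.5, 10.5 and 11.6 FPKM. All 4 no phosphate libraries were below the controls. The means were 15.8 ± 1.29 and 11.0 ± 0.593 FPKM (SD, n = 4), and the log2 difference of -0.48 ± 0.09 (SE), taken as the value that chose the gene, carries no test. A separation with lower values in no phosphate was found in 1.89% of tested genes in roots, and one that was higher in fronds and lower in roots in 0.0542%, or 9 genes. The log2 change in roots minus that in fronds was -0.77 ± 0.13 (SE), again as a description. Of all 16598 tested genes, this one included, 0 passed the limma test of that difference.

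With phosphate the 1-kinase homolog had nearly equal levels in both tissues, the log2 difference of root minus frond being 0.02 ± 0.09 (SE), and without phosphate it was -0.75 ± 0.09. Averaged over both media it was lower in roots, at a log2 difference of -0.37 ± 0.07 (SE), with an adjusted p of 0.000111 in limma. That call depended on the scaling of the libraries. With every library brought to the same sum of FPKM the difference was -0.10 with an adjusted p of 0.204, and with the voom method on the reads behind the FPKM it was -0.16 with an adjusted p of 0.0791. These settings move the median of all genes between the tissues by 0.25 and 0.23 on the log2 scale. In control medium alone they move it by 0.243 and 0.224, so the near equality there depends on the scaling too. The order of the groups was root no phosphate, frond control, root control and frond no phosphate, where the 2 control groups overlapped and the others stood apart.

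Sp09g00677 was a minor part of its family, 5 homologs of inositol-tetrakisphosphate 1-kinases. Of the family's summed FPKM it made up 7.89% ± 1.93 in fronds with phosphate and 14.0% ± 3.10 without, and 5.59% ± 0.8286 and 3.88% ± 0.986 in roots with and without it (SD, n = 4). The most abundant were Sp03g00252, a homolog of kinase 3, and Sp07g00253, a homolog of kinase 1, whose Arabidopsis counterpart also adds the pyrophosphate to phytate. None of the other 4 passed the test between media in either tissue.

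Sp03g00252 had 97.6 to 167 FPKM in control fronds and 39.1 to 97.5 FPKM without phosphate, means of 134 ± 29.5 and 64.1 ± 27.6 (SD, n = 4). The groups touched without overlapping, and a separation with the lower values in no phosphate was found in 9.46% of tested genes. The log2 difference of -1.13 ± 0.36 (SE) had an adjusted p of 0.0916 in limma. It passed when frond libraries were fitted alone, with an adjusted p of 0.0319, and without root control library 3, with an adjusted p of 0.0402. That root library held 172 FPKM of this gene against 57.4 to 66.3 in the other 3, and the root means were 89.5 and 82.7 FPKM. Sp07g00253 had means of 42.0 and 45.6 FPKM in fronds and 167 and 186 FPKM in roots and was higher in roots by 1.96 ± 0.12 on the log2 scale (SE, adjusted p = 3.23e-10).

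The second homolog of kinase 5, Sp14g00723 on chromosome 14, did not share the pattern of Sp09g00677. Its means were 3.50 and 3.81 FPKM in fronds and 8.81 and 10.1 FPKM in roots, with log2 differences between media of 0.10 ± 0.14 and 0.17 ± 0.14 (SE). Roots held more of it, by 1.15 ± 0.10 on the log2 scale (SE, adjusted p = 2.12e-08). Sp10g00182, a homolog of kinase 6, had means between 7.47 and 9.49 FPKM in the 4 groups.

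**Figure D2:**
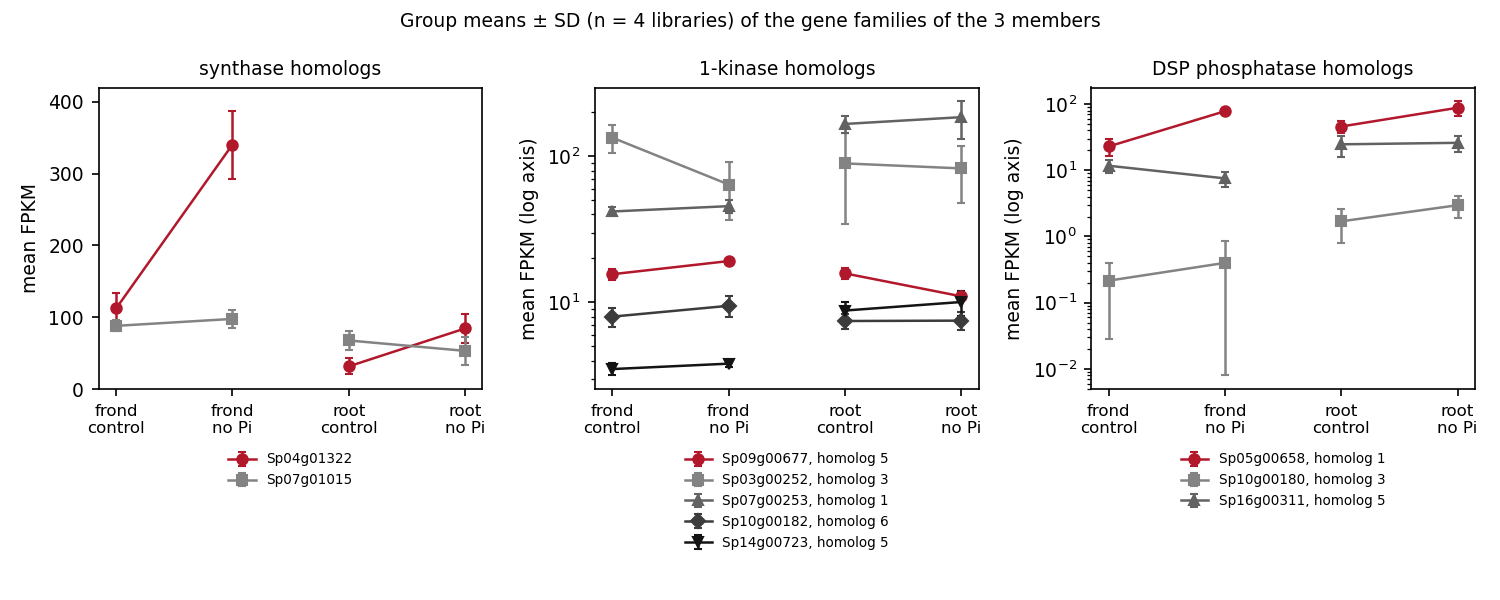
Mean FPKM with SD (n = 4 libraries) of the homologs of each family in the 4 groups, the gene described in the text in red, with a linear axis for the synthases and log axes for the kinases and phosphatases; a lower bar longer than its mean is drawn to just above 0. The first synthase copy stands above the second without phosphate, Sp09g00677 lies among the less abundant 1-kinase homologs, and Sp05g00658 is the most abundant DSP homolog in all 4 groups.

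The phosphatase homolog Sp05g00658 had higher means without phosphate in both tissues, with the larger difference in fronds. It lies on chromosome 5, 3775941 to 3780314, plus strand, with a gene length of 507 bases, and carries a tyrosine phosphatase domain. In control fronds it had 18.5, 19.9, 32.9 and 20.3 FPKM in libraries 1 to 4, and without phosphate 91.4, 73.4, 78.7 and 68.8 FPKM in libraries 5 to 8. The groups lay far apart, and control library 3 stood above the other 3 controls. The means were 22.9 ± 6.71 and 78.1 ± 9.74 FPKM (SD, n = 4), 3.41-fold apart, and the log2 difference of 1.75 ± 0.20 (SE) is taken to have chosen the gene and has no test.

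In roots the difference was smaller and missed the threshold. Control libraries 1 to 4 had 58.5, 46.6, 37.2 and 41.1 FPKM, and libraries 5 to 8 without phosphate had 58.5, 96.0, 112 and 85.5 FPKM. Control library 1 and no phosphate library 5 met at one level, and the other libraries were separated. The means were 45.8 ± 9.29 and 88.0 ± 22.5 FPKM (SD, n = 4), 1.92-fold apart. The log2 difference of 0.91 ± 0.20 (SE), with a 95% interval of 0.475 to 1.34, had an unadjusted p of 0.000419 and an adjusted p of 0.0567 in limma. Without control library 1 it was 1.03 with an adjusted p of 0.0328, without no phosphate library 5 it was 1.09 with an adjusted p of 0.00743, and over all alternatives the adjusted p lay between 0.00743 and 0.317. Library 5 was also the lowest of its group for the synthase homolog, whose log2 difference in roots was 1.61 without it.

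The log2 change of Sp05g00658 in roots minus that in fronds was -0.85 ± 0.29 (SE), a description, as it contains the frond values taken to have chosen the gene. Over all genes, 0% passed the test of this difference between the tissues in limma, and 11.1% had an unadjusted p under 0.05. Averaged over both media the gene was higher in roots, by 0.56 ± 0.14 on the log2 scale (SE, adjusted p = 0.00223). The gap between the tissues was 0.99 ± 0.20 in control medium and 0.14 ± 0.20 without phosphate. These gaps depend on the scaling of the libraries. With the same sum of FPKM in every library, the median of all genes between the tissues moved by 0.243 in control medium. Without phosphate it moved by 0.249, more than the gap of 0.14. The levels ran from frond control through root control and frond no phosphate to root no phosphate, where frond and root no phosphate libraries overlapped at 68.8 to 91.4 and 58.5 to 112 FPKM.

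Among the 3 homologs of DSP phosphatases, Sp05g00658 was the most abundant in each group, with 65.5% ± 4.32 of their summed FPKM in fronds with phosphate and 90.6% ± 3.07 without, and 63.5% ± 11.4 and 74.9% ± 5.83 in roots with and without it (SD, n = 4). Sp16g00311, a homolog of DSP5, had means of 11.7 and 7.54 FPKM in fronds, where its log2 difference of -0.58 ± 0.25 (SE) did not pass (adjusted p = 0.2), and of 24.7 and 26.0 FPKM in roots. Sp10g00180, a homolog of DSP3, was near the limit of detection in fronds, at 0 to 1.02 FPKM and 0 to 5 reads, and had means of 1.69 and 2.97 FPKM in roots. Neither passed the test between media, and both were higher in roots, each by 1.31 on the log2(FPKM + 1) scale (adjusted p = 5.04e-06 and 1.04e-05). That scale understates low genes, and with a pseudocount of 0.1 the differences were 1.39 for Sp16g00311 and 2.82 for Sp10g00180, and with voom 1.60 and 2.91.

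The other genes of the pathway were found by keyword in the homolog names and domains, 86 genes in 5 lists with the 3 above, of which 83 passed the filter on low values. In fronds 5 of the 82 not taken as chosen on that contrast were higher and 1 lower without phosphate, where 2.11% and 2.3% of all tested genes were called. The 5 include the synthase homolog Sp04g01322, which is taken as chosen on its root difference, so that count is not free of the choice. The median log2 change of the 82 was -0.04, beside 0.01 over all tested genes. In roots limma called none of 81 genes in either direction, where 0.422% of all tested genes were called and 16.3% had an unadjusted p under 0.05, and without root no phosphate library 5 it called 3 as higher, where 3.15% of all tested genes were called higher in that fit. The lists take in genes that share only a word or a domain, such as the exocyst subunit homolog Sp17g00176 among the supply genes and the thioredoxin homolog Sp02g00852 among the phosphatases.

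The supply list, which covers genes that make, recycle, carry or consume free inositol, held 4 of the 6 genes called in fronds. They were 3 higher and 1 lower of 15 tested, where 2.11% and 2.3% of all tested genes were called. Beside the synthase Sp04g01322, which was picked with earlier results of these data known, these were Sp03g00657, Sp08g00344 and Sp10g00214. Sp03g00657, a homolog of inositol monophosphatase 3, which frees inositol from its phosphate in the step after the synthase, had 79.1 to 91.4 FPKM in control fronds and 114 to 135 FPKM without phosphate. It rose by 0.60 ± 0.11 on the log2 scale (SE, adjusted p = 0.00857 in limma), and in roots its means of 59.2 and 72.8 FPKM did not pass (adjusted p = 0.197). Sp08g00344, a homolog of galactinol synthase 1, which joins galactose to inositol on the way to raffinose sugars, rose from 0.405 ± 0.275 to 2.66 ± 0.409 FPKM in fronds (SD, n = 4), on 1 to 6 and 20 to 23 reads per library.

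Its log2 change was 1.39 ± 0.33 (SE, adjusted p = 0.0297), or 2.60 with a pseudocount of 0.1 and 2.64 with voom, where the call was lost (adjusted p = 0.0572), and in roots the means were 2.05 and 5.72 FPKM (adjusted p = 0.107). Sp10g00214, a homolog of inositol transporter 1, which in Arabidopsis carries inositol out of the vacuole, fell by 0.76 ± 0.19 on the log2 scale in fronds (SE, adjusted p = 0.0317), from a mean of 38.4 to 22.5 FPKM. Its gene model has only 279 bases and lies directly before Sp10g00215, with the same listed homolog, which had a log2 difference of -0.55 ± 0.17 (SE, adjusted p = 0.0724). Inositol oxygenase, which opens the ring and so consumes inositol, has the homolog Sp13g00573, with means of 130 and 83.4 FPKM in fronds (adjusted p = 0.17) and 201 and 229 FPKM in roots (adjusted p = 0.774). The calls of Sp08g00344 and Sp10g00214 were lost when single frond libraries were left out, with adjusted p up to 0.0958 without frond control library 4 for the former and up to 0.108 without the same library for the latter. Sp08g00344 lost its call in 6 of 8 such fits, all but those without libraries 3 and 8, and Sp10g00214 in 5, without libraries 1, 2, 4, 5 and 6.

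Of the 8 kinase homologs, 1 was called in fronds, as higher, where 2.11% of all tested genes were. Sp08g00143, a homolog of IPK1, the inositol pentakisphosphate 2-kinase that completes phytate, had 14.6 to 19.1 FPKM in control fronds and 23.9 to 31.0 FPKM without phosphate. It rose by 0.59 ± 0.16 on the log2 scale (SE, adjusted p = 0.0426), and its root means of 20.02 and 18.2 FPKM did not pass (adjusted p = 0.753). The call was lost without any 1 of the 8 frond libraries and without root control library 2, with adjusted p of 0.0537 to 0.133. Sp20g00470, a homolog of the multikinase IPK2 beta, and Sp03g00809, a homolog of VIP1, which makes inositol pyrophosphates, did not pass between media. Their frond means were 29.6 and 28.4 FPKM for the former and 4.85 and 4.51 FPKM for the latter.

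**Figure D3:**
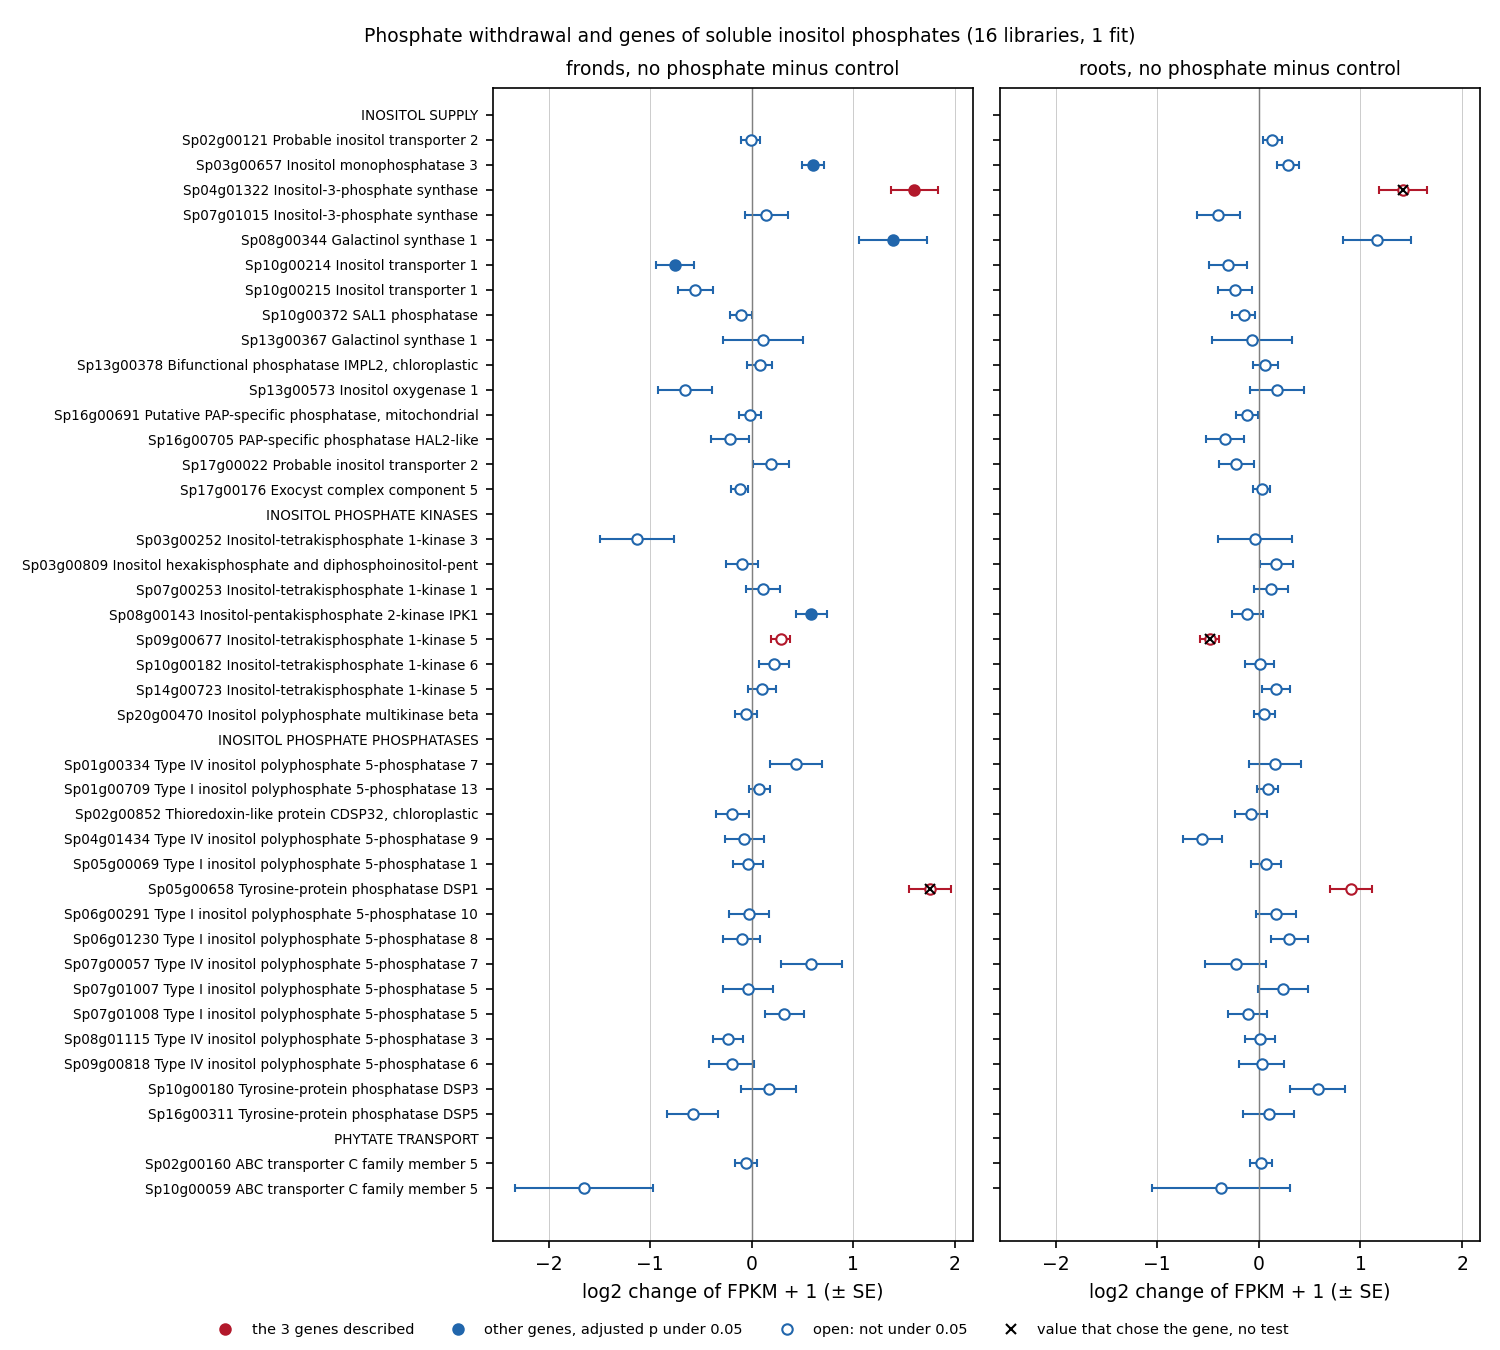
Log2 change of FPKM + 1 (no phosphate minus control, with SE) in fronds (left) and roots (right) for the tested genes of the supply, kinase, phosphatase and phytate transport lists, filled where the adjusted p is under 0.05 and crossed where the value is taken to have chosen the gene and has no test. In fronds 4 genes besides the red ones are filled, 3 to the right of 0 and 1 to the left, and in roots none is.

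None of the 17 phosphatase homologs other than Sp05g00658 was called in fronds, and none of the 18 in roots, where 4.41% and 0.422% of all tested genes were, and the median log2 change was -0.04 in fronds and 0.05 in roots. The list of phosphoinositide lipids, which are membrane lipids with an inositol head, held 1 called gene of 43 in fronds, or 2.33%, beside the 4.41% of all tested genes. That gene, Sp07g00817, a homolog of the lipid phosphatase SAC2, had 15.8 to 19.4 FPKM in control fronds and 24.7 to 31.0 FPKM without phosphate and rose by 0.56 ± 0.10 on the log2 scale (SE, adjusted p = 0.00857). In roots its groups were also separated, at 18.2 to 21.3 and 24.9 to 29.7 FPKM, with a log2 difference of 0.45 ± 0.10 (SE) that did not pass (adjusted p = 0.0567). That list took in several kinases of other functions by their shared lipid kinase domain.

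Phytate transport into the vacuole is carried in Arabidopsis by ABCC5, and its 2 homolog models did not pass between media. Sp10g00059 varied widely within groups, with 141, 151, 11.7 and 27.1 FPKM in control frond libraries 1 to 4 and 12.3 to 29.5 FPKM without phosphate, and the groups overlapped (adjusted p = 0.178). Sp02g00160 had means between 37.4 and 38.9 FPKM in fronds and between 56.1 and 56.7 FPKM in roots. Both were higher in roots, by 1.80 and 0.55 on the log2 scale (adjusted p = 0.00315 and 4.42e-06).

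Between the tissues 34 of the 83 pathway genes were higher in roots and 23 lower, where 36.3% and 38.4% of all tested genes were. By list the counts higher and lower in roots were 4 and 9 of 15 for supply, 3 and 1 of 8 for kinases, 8 and 7 of 18 for phosphatases, 17 and 9 of 43 for lipids and 2 and 0 of 2 for phytate transport. The widest difference in these lists was that of Sp13g00367, a second galactinol synthase 1 homolog, with means of 487 and 523 FPKM in fronds and of 0.783 and 0.81 FPKM in roots, where single libraries had between 0 and 2.96 FPKM. Its log2 difference was -8.36 ± 0.28 (SE, adjusted p = 2.03e-13). Between media its log2 difference in fronds was 0.11 ± 0.39 (SE, adjusted p = 0.901).

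Other supply genes lower in roots were Sp17g00022, a homolog of inositol transporter 2, with frond means of 28.6 and 32.9 and root means of 5.65 and 4.77 FPKM (log2 difference -2.38, adjusted p = 4.65e-11), and the homologs of PAP phosphatases Sp16g00691 and Sp16g00705 (-1.48 and -2.06). The last 2 share a domain with inositol monophosphatases and stand in the phosphatase list too. Among the kinases Sp03g00809 was higher in roots by 0.83 (adjusted p = 5.64e-06). Among the phosphatases that cut a phosphate from inositol polyphosphates, Sp06g00291, a homolog of phosphatase 10, was lower in roots, at a log2 difference of -2.89 ± 0.14, and Sp08g01115, a homolog of phosphatase 3, was higher, at 1.82 ± 0.10 (SE, adjusted p = 1.8e-11 and 1.1e-10).

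Lipid kinases also differed between the tissues. Sp01g00673, a homolog of the kinase PIP5K6, had 6.94 to 10.1 and 10.2 to 15.3 FPKM in the groups of fronds and 0 to 0.332 FPKM in roots, the latter on 0 to 7 reads per library (log2 difference -3.42, adjusted p = 1.17e-13, or -5.88 with a pseudocount of 0.1 and -6.53 with voom). Sp18g00033, a homolog of the kinase FAB1B, had means of 0.294 and 0.446 FPKM in fronds and 4.88 and 5.16 FPKM in roots (2.13, adjusted p = 3.19e-11, or 3.47 and 4.00 in the same alternatives). The lipid phosphatase homologs Sp02g00670 and Sp01g01461, of SAC6 and SAC8, were higher in roots by 1.05 and 1.41 (adjusted p = 1.64e-09 and 3.06e-09).

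**Figure D4:**
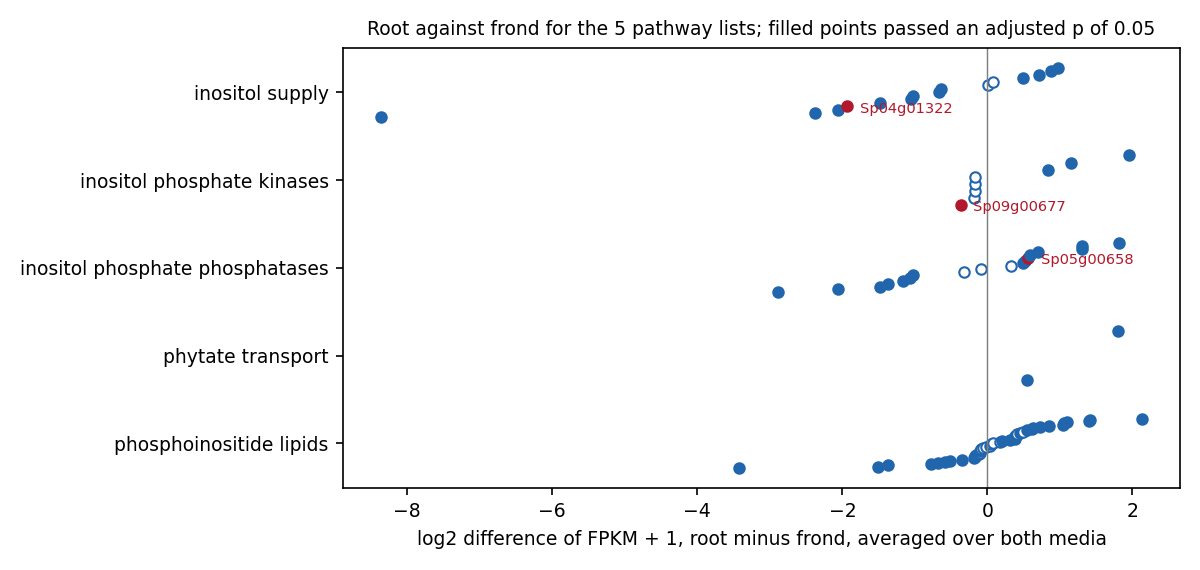
Log2 difference of FPKM + 1 between roots and fronds, averaged over both media, for each tested gene of the 5 pathway lists (1 point per gene, spread vertically within a list for legibility), filled where the adjusted p is under 0.05, with the 3 genes described in red. Sp04g01322 lies at -1.93, Sp09g00677 at -0.37 and Sp05g00658 at 0.56, and the galactinol synthase homolog at -8.36 is the point farthest to the left.

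The keyword SPX matched 8 genes by homolog name or domain, of which 6 have the SPX domain itself listed. In fronds 3 of the 8, and 2 of the 6, were called higher and none lower, where 2.11% of all tested genes were higher, and in roots none was called. They were Sp14g00562 (15.1 to 46.4 FPKM, log2 change 1.53, adjusted p = 0.00132), which is matched by its homolog's name and has no domain listed, Sp14g00561 and Sp08g00151. Sp14g00561 and Sp14g00562 have consecutive identifiers on the same strand of chromosome 14, and both have SPX membrane protein homologs. Whether they are parts of a single gene was not tested, so the counts may take in a gene more than once. Between tissues 5 of the 8 were higher and 1 lower in roots, beside 36.3% and 38.4% of all tested genes, and the phosphate transporter PHO1 homolog Sp02g00083 was higher by 2.34 and Sp10g00487 by 0.57. The model of Sp02g00083 also lists ATP-grasp and CoA-ligase domains, so its level may not be that of a PHO1 gene alone.

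Across the 16 libraries, the genes whose log2(FPKM + 1) followed each of the 3 most closely were sought among 9892 genes. These had a listed homolog or domain and a mean of at least 5 FPKM. The libraries share groups, depth and scaling, so the correlations are descriptions. Genes picked by correlation tend to share the order of groups through that choice. For Sp04g01322 these were Sp09g00842, a homolog of a chloroplast methyltransferase of vitamin E and plastoquinone synthesis (Pearson r = 0.986), the aldehyde dehydrogenase homolog Sp08g01130 (0.981) and the serine incorporator homolog Sp08g01150 (0.980). Sp09g00842 had group means of 468 and 872 FPKM in fronds and of 190 and 327 FPKM in roots, in the same order of groups as the synthase.

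For Sp05g00658 the nearest were Sp04g01156, a homolog of the chaperone calnexin (r = 0.956), the SPX membrane protein homolog Sp14g00562 (0.936) and Sp11g00311, a homolog of the sugar phosphatase Sgpp (0.896). Sp11g00311 had means of 125 and 219 FPKM in fronds and 153 and 272 FPKM in roots. For Sp09g00677 the correlations were lower, with the nuclear pore protein homolog Sp18g00537 (0.884), the tRNA pseudouridine synthase homolog Sp02g00871 (0.865) and the RNA helicase homolog Sp10g00567 (0.865). Each of these 3 had its highest group mean in no phosphate fronds and its lowest in no phosphate roots, at 9.14 and 3.96, 10.7 and 4.77, and 7.25 and 4.30 FPKM.

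On the chromosomes the 3 genes were apart from each other and no other gene model overlapped them. The gene after Sp04g01322, 11059 bases away, was Sp04g01323, a homolog of the light-harvesting protein CP24, with frond means of 4647 and 4524 FPKM and root means of 2195 and 1822 FPKM. The gene after Sp05g00658, 4961 bases away, was the light-induced protein homolog Sp05g00659, with 307 and 396 FPKM in fronds and 119 and 158 FPKM in roots. The gene before Sp09g00677, 1206 bases away, was close to 0 in all groups.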

How the data were processed

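Per the labels' protocols, libraries were made from polyadenylated RNA and read as pairs of 150 bases. The submitters' processing notes name HISAT2 2.0.5 and featureCounts 1.5.0-p3 without their settings. Genome build, annotation and use of strand are not stated there. The authors deposited FPKM per gene, per the file headers, with gene length, position, homolog and domains. Homologs and domains name the genes, and do not show that a gene has that function. In every library 100% of values were whole multiples of 1 read (tolerance 0.001 reads). The library size so implied was 0.886 to 1.14 times the summed reads, lower than the sum in every frond library and higher in every root library, so the FPKM carry a scaling that is not described. With 3 reads a 1 kb gene had 0.213 to 0.507 FPKM. An unused line of the table was left out, and no libraries of a group agreed within sampling noise (chi-square per degree of freedom at least 3.83).

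log2(FPKM + 1) was fitted, for the 16598 genes whose mean reached 0.5 FPKM, with limma 3.58.1 (R 4.3.3, statmod 1.5.0), a mean per group over 16 libraries, with a trended and robust prior. P-values are two-sided and Benjamini-Hochberg adjusted over all tested genes per contrast, with calls under 0.05. This scale understates changes of low genes. The fit was also run on simulated reads with the same spread for every gene and no tissue difference built in. That run does not bear on how stable the calls in these libraries are. Members and lists were chosen with earlier results of these data known, so no list has a test of its own. The text names the 3 genes, their families, up to 4 called genes per list and contrast, and the 3 closest genes by correlation. Inositol oxygenase, Sp20g00470, Sp10g00215, the marker, neighbour and off-list examples were added after their values were seen. Which labelled replicate a column holds is not shown by its number. Alternatives were another pseudocount (0.1), no filter, 2 other scalings, 1 tissue alone, voom on the recovered reads, a plain prior, a replicate block and each library left out.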

Additional observations from a re-analysis of the deposited data

Results flagged for a closer look

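In a group of 4, a library was singled out where its gap to the nearest other library relative to the group's range passed Dixon's 95% critical value for 4 values. That was so in 16 of 164 groups over 41 genes, or 9.76%, where chance gives about 1 in 20. For Sp05g00658 it was frond control library 3, at 32.92 FPKM beside 18.53 to 20.31 in the others. For its family and that of the 1-kinase there were 4 such groups. Sp03g00252 had 171.9 FPKM in root control library 3 (57.38 to 66.29 in the others), and Sp07g00253 had 37.68 in frond control library 3 (43.12 to 43.66). Sp10g00182 had 9.115 FPKM in root no phosphate library 5 (6.832 to 7.129), and Sp14g00723 had 4.107 in frond no phosphate library 6 (3.69 to 3.734).

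In the supply list the value was high for Sp03g00657 in frond control library 2 (91.37 FPKM against 79.08 to 80.11) and for Sp08g00344 in root control library 4 (4.691 against 1.052 to 1.332). It was low for Sp10g00214 in root no phosphate library 6 (28.99 FPKM against 48.18 to 50.44). Sp13g00367 was high in root control library 3 (2.515 FPKM against 0.1056 to 0.374) and in root no phosphate library 5 (2.96 against 0 to 0.2786).

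Among the remaining genes, Sp03g00809 was high in root control library 1 (11.26 FPKM against 7.273 to 7.914), as was Sp02g00160 there (68.08 against 51.16 to 53.41). Sp06g00291 was low in frond no phosphate library 5 (12.98 FPKM against 14.5 to 14.7), and Sp10g00059 was high in frond no phosphate library 8 (29.51 against 12.26 to 13.12). Sp09g00842 was low in frond no phosphate library 8 (760.2 FPKM against 900.8 to 924.4), and Sp02g00871 in root control library 3 (5.488 against 7.114 to 7.413).

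The 1-kinase homolog Sp09g00677 was above every control in all 4 no phosphate frond libraries and below every control in all 4 no phosphate root libraries, with log2 changes that differed by -0.7692 (root minus frond). No p-value is given for that difference, since the root values are taken to have chosen the gene. Over all 16598 tested genes, this one included, 0 passed the limma test of the difference between the tissues.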

How the results depend on the processing

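The frond change of the synthase homolog and the tissue differences of the synthase and DSP1 homologs kept their direction and their call in every alternative run, at 1.46 to 1.67, -2.03 to -1.65 and 0.4996 to 0.8428. With a replicate block by column number, the synthase change in fronds was 1.60 (adjusted p = 0.00367) and the pathway counts in fronds stayed at 5 and 1. The block changed no call of the 3 genes or of these lists. Whether equal column numbers of fronds and roots share a flask is not known. The deviations of equal numbers correlated at -0.116 to 0.147, and the root library of the same number was the closest for 3 of 8, which cannot settle it. The block therefore cannot show the effect of flasks that gave both fronds and roots. The p-values between tissues leave that pairing out. The frond count of all genes went from 351 higher to 902 with 1 tissue alone, and from 381 lower to 590 (same sum), 870 (1 tissue alone) and 595 (voom). Lower pathway genes in fronds went from 1 to 2 (same sum), 4 (1 tissue alone) and 4 (voom). The root counts of all genes, 59 higher and 11 lower, went to 16 (same sum), 39 (median ratio), 0 (1 tissue alone) and 31 (plain prior) higher, and to 17 (pseudocount 0.1), 0 (1 tissue alone) and 37 (voom) lower. The tissue difference of Sp09g00677 lost its call at -0.098 (same sum) and -0.161 (voom). IPK1 homolog Sp08g00143 in fronds had adjusted p of 0.0545 (same sum) and 0.0514 (plain prior), and galactinol synthase homolog Sp08g00344 had 0.0572 (voom). Signs turned, none of them called, for the tissue difference of Sp03g00252 at 0.112 (same sum) and 0.0506 (voom), and for Sp10g00182 in roots at -0.0307 (same sum), -0.0129 (median ratio) and -0.0466 (voom) and between tissues at 0.0630 (same sum) and 0.0266 (voom). With 1 tissue alone the contrasts between tissues have no value. The cause of these changes was not tested.

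With 1 library left out in turn, pathway genes higher in fronds were 3 to 5, lower in fronds 0 to 2 and higher in roots 0 to 3. All genes were 70 to 457 higher and 83 to 514 lower in fronds, and 0 to 523 higher and 0 to 268 lower in roots, with the most root calls when no phosphate library 5 was left out. The root change of Sp05g00658 was 0.7805 to 1.089, and the synthase contrast between tissues -0.3436 to 0.009695. Also changing sign, with no call, were the root changes of Sp03g00252 (-0.2861 to 0.3254), Sp07g00253 (-0.0378 to 0.2989), Sp10g00182 (-0.0797 to 0.04331) and Sp16g00311 (-0.05705 to 0.276) and the frond change of Sp10g00180 (-0.0268 to 0.3117). Depth limits the galactinol synthase and DSP3 homologs, with 0 to 6 reads in control fronds, more than the 3 genes, with 69 reads or more per library.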
